A study of Mus musculus with 4 samples.

Results

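The genes of hepatic cholesterol handling were described as a group of 33 mouse genes. They were chosen by name for their roles in the pathway and not by a threshold on their values. Earlier results of these data were known when the genes were chosen. They were 19 enzymes of cholesterol synthesis and 14 genes that control synthesis or serve uptake, intracellular transport, esterification and efflux. Of the 33, 32 were found under their own symbol among the 27027 entries of the expression table. These were 18 synthesis enzymes and all 14 other genes. The remaining enzyme, Fdps, shares an entry with other genes and is described separately.

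Liver RNA was compared between male C57BL/6J mice, 9 to 12 weeks old, that were fasted for 10 h and then injected i.p. with APAP (acetaminophen) at 300 mg/kg or with 0.9% NaCl as control. APAP overdosing injures the liver, and the study addressed the resolution phase, with livers taken 24 h or 48 h after injection and free access to food in between. RNA was pooled at equal shares from 6 mice per control group and 7 mice per APAP group, and each of the 4 pools gave 1 library of MACE (massive analysis of cDNA ends), which reads fragments from the 3′ ends of mRNA. A fold therefore compares 2 pooled libraries, no p-value can be given, and intervals are 95% counting intervals that do not cover differences between mice or between pools.

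The libraries held 4859661 (control, 24 h), 5191990 (control, 48 h), 5698778 (APAP, 24 h) and 4938164 (APAP, 48 h) reads, and levels are given as reads divided by DESeq2 size factors (normalized reads). Hepatocyte markers marked the tissue as liver, since 7 of them together held from 7.96% of the reads (24 h control) up to 10.1% (APAP, 48 h). A gene was called when it differed at least 2-fold from the control pool of the same time. Calls were made among the 12113 entries whose mean over the libraries reached 10 normalized reads, a minimum that all 32 genes met. Scaling by library totals instead would raise each log2 fold by 0.19 at 24 h and 0.27 at 48 h. It would also turn the split of calls over all entries from 5.68% lower and 5.85% higher at 24 h to 3.65% and 8.80%, and from 5.61% and 5.76% at 48 h to 3.25% and 9.87%.

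Hepatocytes make cholesterol from acetyl-CoA by the mevalonate pathway, take it up in lipoproteins, store it as esters and export it to lipoproteins and bile. When sterols in the endoplasmic reticulum are low, SCAP escorts the transcription factor SREBP2 to the Golgi, where it is cleaved and released to switch on nearly the whole synthesis pathway. When sterols are plentiful, INSIG proteins hold SCAP back, and oxysterols activate liver X receptors, which switch on the efflux transporters.

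The mRNAs of the synthesis enzymes were lower after APAP, with folds below 1 at both times in 17 of the 18 enzymes. At 24 h, 11 of the 18 enzymes were at least 2-fold lower, where 5.68% of all entries were, and at 48 h 15 were, where 5.61% of all entries were. At 24 h the count was 7 with library totals and 9 with TMM factors, beside 3.65% and 5.20% of all entries. At 48 h it was 14 and 15, beside 3.25% and 5.51%. None was at least 2-fold higher at either time. Their median log2 fold was -1.02 at 24 h and -1.62 at 48 h, beside 0.01 and -0.02 over all entries. In bulk liver, fewer cells of a type and less RNA per cell cannot be told apart.

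**Figure D1:**
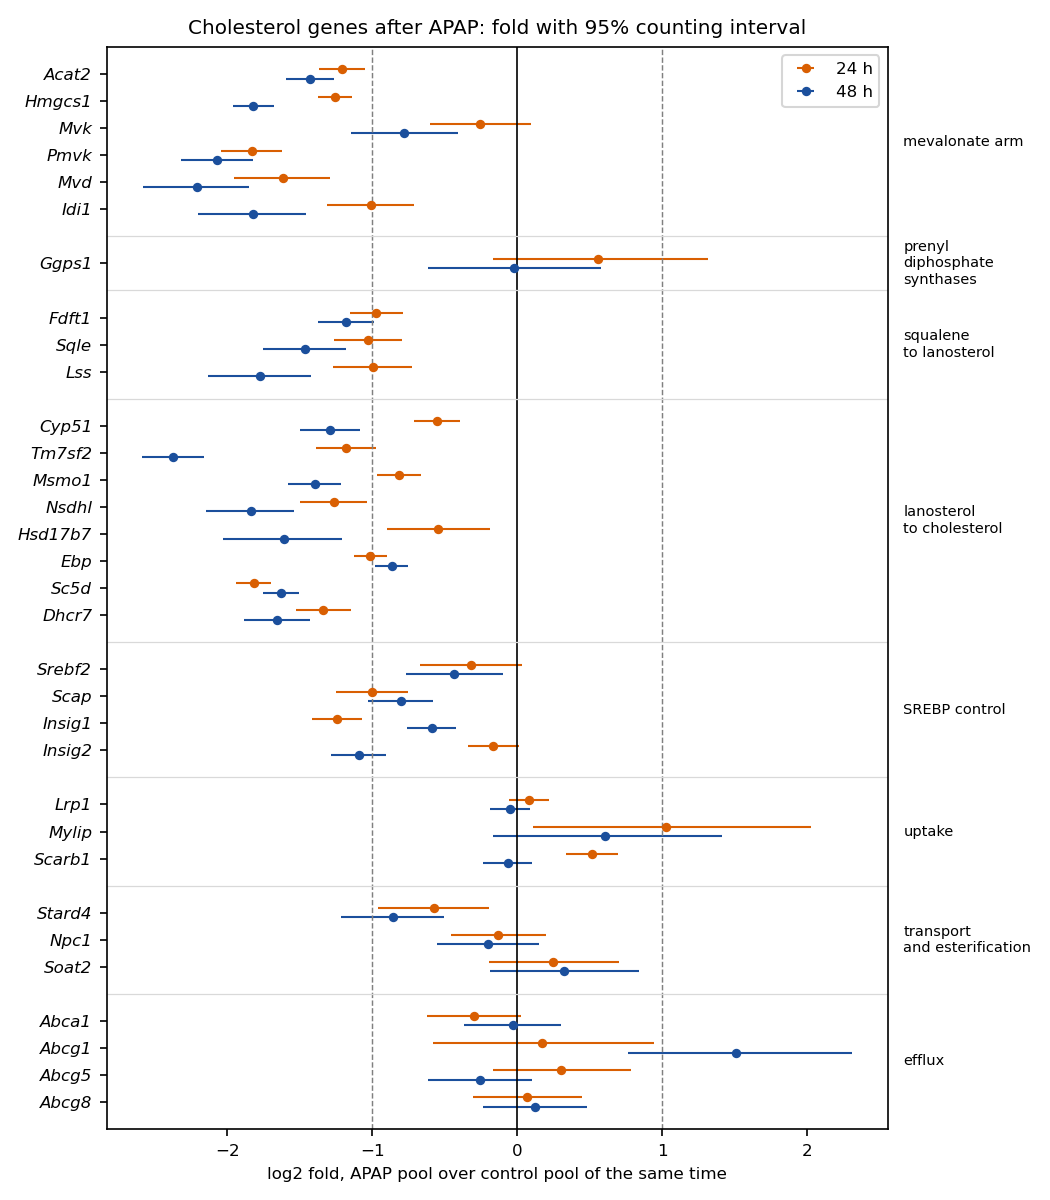
Log2 fold of each gene, APAP pool over control pool of the same time (x axis), by pathway step, with 95% counting intervals as bars and dashed lines at 2-fold. The synthesis enzymes lie left of 0 except Ggps1, most of them farther left at 48 h than at 24 h, whereas most uptake, transport and efflux genes lie around 0.

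In 17 of the 18 enzymes both APAP pools lay under both control pools, which was so in 26.3% of all entries. The interval of the fold lay below 1 in 16 of 18 enzymes at 24 h (18.3% of all entries), in 17 at 48 h (18.9%) and in 16 at both times (11.1%). A counting interval is narrower where reads are many. The enzymes had means of 42.6 (Ggps1) to 1447 (Sc5d) normalized reads, while all entries include those from a mean of 10. No share of all entries given above, here or below is matched for depth, whether of intervals or of 2-fold calls. At least 2-fold lower at both times were 10 of 18 enzymes, beside 2.40% of all entries. Summed over the 18 enzymes, the level was 13926 and 13473 normalized reads in the 24 h and 48 h controls and 6155 and 4731 after APAP, or 2.26 times lower at 24 h and 2.85 times lower at 48 h. The enzymes held 0.252% and 0.242% of the reads of the control libraries and 0.127% and 0.102% of those of the APAP libraries.

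**Figure D2:**
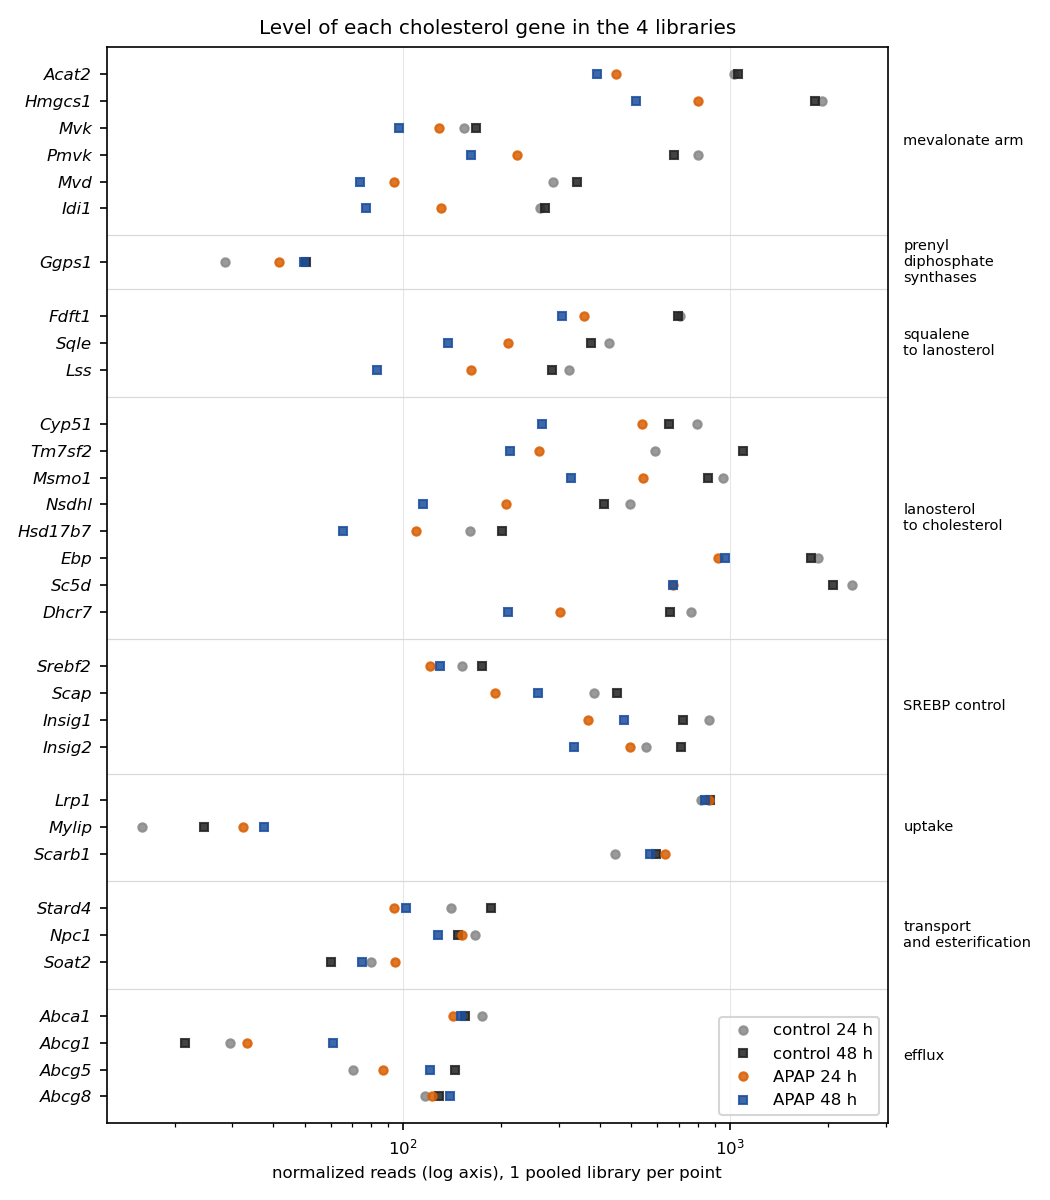
Level of each gene in the 4 pooled libraries, in normalized reads on a log axis, 1 point per library. For 17 of 18 synthesis enzymes both coloured points (APAP) lie left of both grey and black points (control), and the control points mostly lie close together.

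Promoter sequences were drawn from RefSeq (GRCm38.p6), which gave the 250 bases before and 50 bases after 1 or more starts for 25 of the 33 genes. The pentamer CCAAT, read on both strands, is the letter core bound by NF-Y, a factor known to work together with SREBP. It stood at a start of 21 of the 25 genes (84.0%), among them 15 of 16 synthesis enzymes. The same was so for 42.7% of the 8513 genes that met the minimum level and had a promoter, and for 37.4% of all 32851 promoters. TCACNCCAC, also read on both strands, is a form of the sterol regulatory element that SREBP binds. It stood at a start of 1 of the 25 genes, Hmgcs1, beside 1.55% of the genes that met the minimum and 1.24% of all promoters. A match describes letters and not binding, and other forms of the element were not searched.

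The 150 bases before a RefSeq start are shown for 5 enzymes. They have the lowest folds at 48 h among the 6 of 16 enzymes whose stretch overlaps no exon of the annotation, and include the promoter with the sterol regulatory element letters. They are written 5′ to 3′ on the strand of the gene, with CCAAT or its reverse complement ATTGG and the 9 letters TCACCCCAC of Hmgcs1 in capitals. No capitalised stretch overlaps another, and the letters of Hmgcs1 start 137 bases before its RefSeq start.
Mvd (chr8:122443423-122443572, minus strand): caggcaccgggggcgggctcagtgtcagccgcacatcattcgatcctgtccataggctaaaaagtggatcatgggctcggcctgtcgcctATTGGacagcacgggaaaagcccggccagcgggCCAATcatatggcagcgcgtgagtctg
Pmvk (chr3:89454391-89454540, plus strand): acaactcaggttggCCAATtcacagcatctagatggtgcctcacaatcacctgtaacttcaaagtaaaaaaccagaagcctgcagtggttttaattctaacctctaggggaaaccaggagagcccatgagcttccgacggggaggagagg
Hmgcs1 (chr13:119690201-119690350, plus strand): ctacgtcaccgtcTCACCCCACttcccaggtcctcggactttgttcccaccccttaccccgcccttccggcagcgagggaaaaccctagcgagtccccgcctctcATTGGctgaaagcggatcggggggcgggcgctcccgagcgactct
Sc5d (chr9:42264301-42264450, minus strand): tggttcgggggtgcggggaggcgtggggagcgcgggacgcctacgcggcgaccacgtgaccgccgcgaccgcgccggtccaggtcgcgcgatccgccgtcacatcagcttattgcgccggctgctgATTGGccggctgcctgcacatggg
Ebp (chrX:8193513-8193662, minus strand): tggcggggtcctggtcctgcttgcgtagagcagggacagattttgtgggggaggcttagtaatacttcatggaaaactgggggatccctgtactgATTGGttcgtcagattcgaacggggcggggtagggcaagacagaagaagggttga

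The mevalonate arm turns acetyl-CoA into isoprene units. Of its 6 measured enzymes, 5 were at least 2-fold lower at each time, beside 5.68% of all entries at 24 h and 5.61% at 48 h. Acat2, the cytosolic thiolase of the first step, gave 1035 and 1060.4 normalized reads in the 24 h and 48 h controls and 447 and 394 after APAP. It was 2.31 (2.08 to 2.58) times lower at 24 h and 2.69 (2.4 to 3.03) times lower at 48 h. Hmgcs1 (chr13:119690379-119708260, plus strand) makes HMG-CoA, the substrate of the rate-limiting reductase. It gave 1917 and 1824 normalized reads in the 24 h and 48 h controls and 802 and 517 after APAP. This was 2.39 (2.2 to 2.59) times lower at 24 h and 3.53 (3.2 to 3.89) times lower at 48 h, while the 2 control pools differed by a ratio of 0.952 (0.889 to 1.02). Both APAP pools lay far below both controls, which lay close together.

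Mevalonate is then phosphorylated by the kinases Mvk and Pmvk and decarboxylated by Mvd. Mvk gave 153 and 167 normalized reads in the 24 h and 48 h controls and 129 and 97.5 after APAP, with folds of 0.838 (0.66 to 1.06) and 0.583 (0.45 to 0.752). Mvk was thus the enzyme of the arm with the smallest difference, with an interval that held 1 at 24 h. Pmvk (chr3:89454541-89469013, plus strand) gave 798 and 677 normalized reads in the 24 h and 48 h controls and 224 and 161 after APAP. It was 3.56 (3.09 to 4.12) times lower at 24 h and 4.2 (3.54 to 5.0) times lower at 48 h. Mvd (chr8:122433601-122443422, minus strand) gave 288 and 342 normalized reads in the 24 h and 48 h controls and 93.7 and 74.1 after APAP. It was 3.07 (2.44 to 3.88) times lower at 24 h and 4.62 (3.6 to 5.99) times lower at 48 h. These neighbouring steps hence had larger differences than Mvk in the same libraries. The whole of Mvd lies within Gm20388 on the other strand, which had folds of 1.01 (0.961 to 1.06) and 0.999 (0.95 to 1.05), and reads of such pairs cannot be told apart without strand.

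Idi1 isomerises the isoprene unit. It gave 263 and 272 normalized reads in the 24 h and 48 h controls and 130.3 and 76.9 after APAP, 2.02 (1.64 to 2.49) times lower at 24 h and 3.54 (2.75 to 4.6) times lower at 48 h. Summed, the arm was 2.44 times lower at 24 h and 3.29 times lower at 48 h. The levels of Acat2 and Idi1 are uncertain, since reads could be shared with near-identical sequences. The last 300 bases of Acat2 matched Acat3 and Tcp1 at 97.4% over 153 bases, and those of Idi1 matched the predicted genes Gm13502 and Gm35570. Acat3 itself had folds of 0.661 (0.592 to 0.737) at 24 h and 0.670 (0.603 to 0.745) at 48 h, and Tcp1 had folds of 1.02 (0.905 to 1.16) and 0.938 (0.820 to 1.07).

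The prenyl diphosphate synthases stand at the branch where isoprene units go to sterols or to protein prenylation. Fdps, which makes farnesyl diphosphate for squalene, has no entry of its own. Its reads lie in a merged entry headed Gm43738 that also names Rusc1 and Gm22935, with 3304 and 3121 reads in the 24 h and 48 h controls and 1297 and 759 after APAP. That entry was 3.40 (3.19 to 3.63) times lower at 24 h and 4.70 (4.34 to 5.10) times lower at 48 h, and the share of Fdps in it is uncertain. Ggps1 makes geranylgeranyl diphosphate, which is used outside the sterol branch. It gave 28.4 and 50.4 normalized reads in the 24 h and 48 h controls and 41.7 and 49.7 after APAP, with folds of 1.47 (0.89 to 2.48) and 0.986 (0.653 to 1.49). Its last 300 bases matched the predicted gene Gm5630. Ggps1 was the only synthesis enzyme found whose fold was above 1 at 24 h, and its control pools differed by a ratio of 1.77 (1.07 to 3.01). Against the control pool of the other time its folds were 0.828 and 1.75, so that their direction turned at both times.

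From squalene to lanosterol, all 3 enzymes were at least 2-fold lower at 48 h (5.61% of all entries). At 24 h, 1 was (5.68%), and the others were just short of it. Fdft1 joins farnesyl units to squalene and gave 704 and 695 normalized reads in the 24 h and 48 h controls and 359 and 307 after APAP. It was 1.96 (1.73 to 2.23) times lower at 24 h and 2.27 (1.98 to 2.6) times lower at 48 h. Sqle, the squalene epoxidase and a second control point of the pathway, gave 427 and 377 normalized reads in the 24 h and 48 h controls and 209.5 and 137 after APAP. It was 2.04 (1.73 to 2.41) times lower at 24 h and 2.76 (2.27 to 3.37) times lower at 48 h. Lss closes the ring to lanosterol and gave 323 and 285 normalized reads in the 24 h and 48 h controls and 162 and 83.4 after APAP. It was 2.0 (1.65 to 2.41) times lower at 24 h, a fold of 0.501, and 3.42 (2.68 to 4.4) times lower at 48 h. In each of the 3 enzymes the control pools lay close together and far above both APAP pools. Their sum was 1.99 times lower at 24 h and 2.58 times lower at 48 h. The 3′ end of Fdft1 overlaps that of Ctsb on the other strand, and whether the counting used strand is not given in the sources used here. Ctsb had folds of 0.846 (0.799 to 0.896) at 24 h and 1.32 (1.25 to 1.39) at 48 h, a direction opposite to Fdft1 at that time.

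The 8 measured enzymes from lanosterol to cholesterol remove methyl groups and shift or reduce double bonds. At 24 h, 5 were at least 2-fold lower (5.68% of all entries), and at 48 h 7 were (5.61%). Cyp51, the lanosterol demethylase, gave 794 and 652 normalized reads in the 24 h and 48 h controls and 541 and 266 after APAP. It was 1.47 (1.32 to 1.64) times lower at 24 h and 2.45 (2.12 to 2.83) times lower at 48 h. Its 3′ end meets that of Akap9 on the other strand, which had folds of 0.884 (0.62 to 1.26) and 0.615 (0.41 to 0.914). Tm7sf2 (chr19:6062821-6068373, minus strand) encodes a sterol reductase of the next step. It gave 591 and 1097 normalized reads in the 24 h and 48 h controls and 261 and 212 after APAP. It was 2.27 (1.97 to 2.62) times lower at 24 h and 5.18 (4.48 to 6.01) times lower at 48 h, the lowest fold at 48 h of the 32 genes. The control pools of Tm7sf2 themselves differed by a ratio of 1.86 (1.67 to 2.07). Against the control pool of the other time, the folds of Tm7sf2 were 0.238 at 24 h and 0.358 at 48 h, so it stayed more than 2-fold lower but the order of the times turned. Upstream, Tm7sf2 overlaps Vps51 on the same strand, away from its 3′ end.

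Msmo1, Nsdhl and Hsd17b7 act in turn to remove the methyl groups at C4. Msmo1 gave 954 and 859.9 normalized reads in the 24 h and 48 h controls and 543 and 326 after APAP. It was 1.76 (1.58 to 1.95) times lower at 24 h and 2.64 (2.32 to 3.0) times lower at 48 h. Nsdhl (chrX:72918557-72958514, plus strand) gave 496 and 413 normalized reads in the 24 h and 48 h controls and 206 and 115 after APAP. It was 2.4 (2.05 to 2.83) times lower at 24 h and 3.58 (2.91 to 4.42) times lower at 48 h. Hsd17b7 gave 160.3 and 200.5 normalized reads in the 24 h and 48 h controls and 109.9 and 65.6 after APAP. It was 1.46 (1.14 to 1.87) times lower at 24 h and 3.05 (2.31 to 4.08) times lower at 48 h, and against the control pool of the other time its folds were 0.548 and 0.409. All 3 were thus lowest in the APAP pool at 48 h.

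Ebp, Sc5d and Dhcr7 finish the sterol ring. Ebp, the sterol isomerase, gave 1863 and 1768 normalized reads in the 24 h and 48 h controls and 923 and 969 after APAP. It was 2.02 (1.87 to 2.18) times lower at 24 h and 1.82 (1.69 to 1.97) times lower at 48 h. Sc5d, the lathosterol desaturase, gave 2371 and 2075 normalized reads in the 24 h and 48 h controls and 673 and 670.4 after APAP. It was 3.52 (3.25 to 3.83) times lower at 24 h and 3.09 (2.84 to 3.38) times lower at 48 h. The APAP pools of Ebp and of Sc5d therefore hardly differed from each other. Dhcr7, which makes cholesterol in the last step of its branch, gave 762 and 658 normalized reads in the 24 h and 48 h controls and 302 and 209 after APAP. It was 2.53 (2.22 to 2.88) times lower at 24 h and 3.15 (2.7 to 3.69) times lower at 48 h. Summed, the 8 enzymes were 2.25 times lower at 24 h and 2.72 times lower at 48 h.

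The distance from control was larger at 48 h than at 24 h for most enzymes. The fold was lower at 48 h in 16 of 18 enzymes, beside 52.3% of all entries. These 16 include Ggps1, whose fold of 1.47 at 24 h and 0.986 at 48 h was nearer to control at 48 h. The ratio of the fold at 48 h to that at 24 h had an interval below 1 in 12 enzymes, beside 11.5% of all entries, and above 1 in 1, Sc5d, beside 9.30%. The ratio was 0.438 (0.356 to 0.539) for Tm7sf2, 0.478 (0.326 to 0.698) for Hsd17b7, 0.569 (0.406 to 0.794) for Idi1 and 0.584 (0.426 to 0.798) for Lss. It was 1.11 (0.991 to 1.24) for Ebp and 1.14 (1.01 to 1.28) for Sc5d, the enzymes whose fold was not lower at 48 h. The control pools of Sc5d differed by a ratio of 0.875 (0.822 to 0.931). Against the control pool of the other time, its folds were 0.324 at 24 h and 0.283 at 48 h, so that their order turned. The folds of Ebp were then 0.522 and 0.520. Each ratio rests on 4 pooled libraries, so that a difference between times and a difference between pools cannot be told apart. Across the 32 genes, the log2 folds at the 2 times had a Spearman rho of 0.847, across the 18 enzymes of 0.703 and across all 12112 entries with a value of 0.434. These are descriptions across genes, which share the libraries, and the 3 values are not matched for depth. The value over the 32 genes also spans 2 groups with different medians. Median log2 folds at 24 h and 48 h were -1.02 and -1.62 for the enzymes and -0.03 and -0.14 for the other 14 genes.

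**Figure D3:**
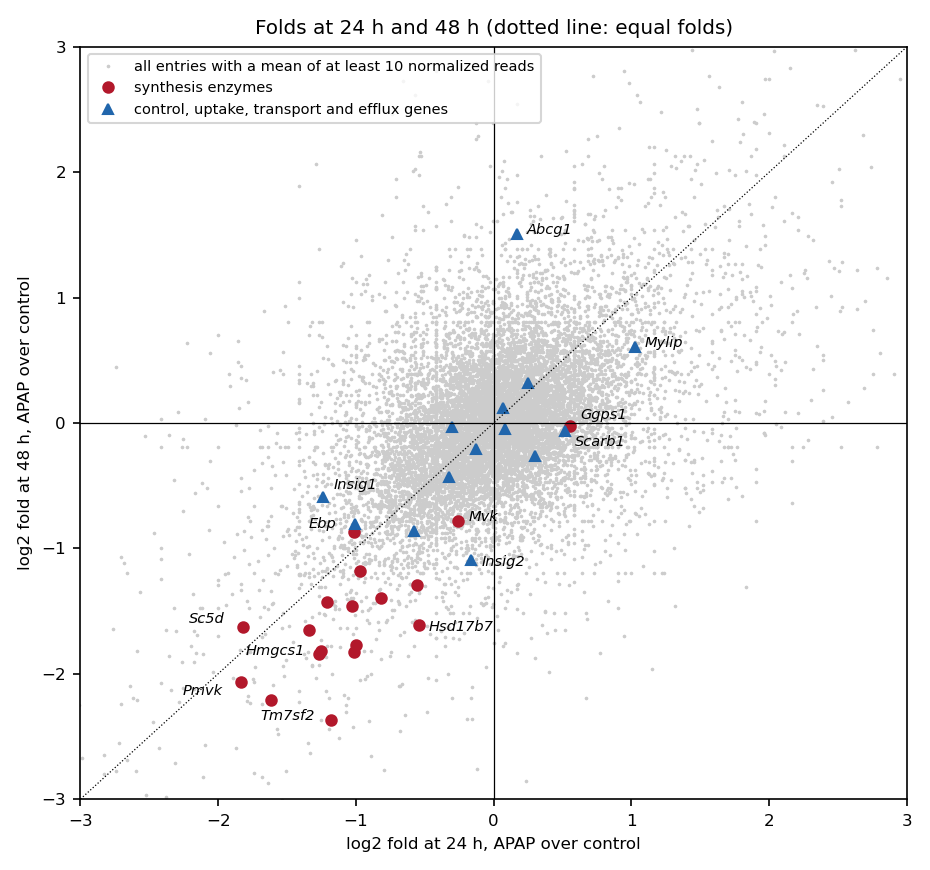
Log2 fold at 24 h (x axis) against log2 fold at 48 h (y axis), both APAP over control, for all entries whose mean reached 10 normalized reads (grey, entries beyond 3 on either axis not drawn), the synthesis enzymes (red circles) and the other cholesterol genes (blue triangles). Of the 18 enzymes, 17 lie below 0 on both axes and 16 lie below the dotted line of equal folds, while Abcg1 and Insig1 lie above it.

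The control pools showed how far pools without APAP differed. Between 48 h and 24 h, no enzyme differed at least 2-fold between the control pools. Of all entries, 2.86% were at least 2-fold higher and 2.34% lower at 48 h, and a count of none among 18 enzymes is close to these shares. One of the other 14 genes differed at least 2-fold, Abcg5. The counting interval of the control ratio left out 1 in 9 of the 18 enzymes and in 6 of the other 14 genes. Over all 32 genes it lay above 1 in 8, beside 10.7% of all entries, and below 1 in 7, beside 8.16%. Differences between control pools were hence larger than counting error for nearly as many genes as not. The log2 control ratios of the 18 enzymes ran from -0.28 to 0.89, while their log2 folds after APAP ran from -1.83 to 0.55 at 24 h and from -2.37 to -0.02 at 48 h.

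Of the 4 genes of SREBP control, all had folds below 1 at both times, but they differed in size and timing. Srebf2, which encodes SREBP2, gave 151 and 175 normalized reads in the 24 h and 48 h controls and 121 and 129 after APAP, with folds of 0.80 (0.627 to 1.02) and 0.74 (0.586 to 0.935). Scap, the sterol sensor and escort of SREBP, gave 384 and 451 normalized reads in the 24 h and 48 h controls and 192 and 259 after APAP. It was 2.01 (1.69 to 2.38) times lower at 24 h and 1.74 (1.5 to 2.04) times lower at 48 h. Both APAP pools of these genes lay under both control pools, in Scap by a wide margin. Insig1 and Insig2 retain SCAP in the endoplasmic reticulum, and Insig1 is itself a target of SREBP. Insig1 gave 867 and 717 normalized reads in the 24 h and 48 h controls and 367 and 476 after APAP. It was 2.36 (2.1 to 2.67) times lower at 24 h and 1.51 (1.34 to 1.69) times lower at 48 h. Insig2 gave 556 and 712 normalized reads in the 24 h and 48 h controls and 496 and 334 after APAP. Its fold was 0.892 (0.789 to 1.01) at 24 h, and it was 2.13 (1.87 to 2.43) times lower at 48 h.

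The folds of the INSIG genes thus changed in opposite directions between the times. The ratio of the folds was 1.57 (1.33 to 1.86) for Insig1 and 0.526 (0.439 to 0.63) for Insig2. Insig1 was the lowest of the 4 at 24 h and Insig2 the lowest at 48 h. Against the control pool of the other time, the fold of Insig1 was 0.512 at 24 h and 0.549 at 48 h, and that of Insig2 was 0.696 and 0.60. Neither was then 2-fold lower, and most of the distance between the times was gone for both. In sum, the 4 genes were 1.67 times lower at 24 h and 1.72 times lower at 48 h.

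Among the genes of uptake, transport and efflux, few differences were as large as in synthesis. Of these and the SREBP control genes together, 14 in all, 2 were at least 2-fold lower at 24 h, Scap and Insig1 (5.68% of all entries), and 1 at 48 h, Insig2 (5.61%). One was at least 2-fold higher at each time, Mylip at 24 h (5.85% of all entries) and Abcg1 at 48 h (5.76%). The interval lay above 1 in 2 of the 14 at 24 h, Mylip and Scarb1, beside 15.4% of all entries, and in 1 at 48 h, Abcg1, beside 13.9%. It lay below 1 in 3 of the 14 at 24 h, Scap, Insig1 and Stard4, beside 18.3% of all entries. At 48 h it lay below 1 in 5, these 3 and Srebf2 and Insig2, beside 18.9%, and the share of all entries below 1 at both times was 11.1%. It held 1 at both times in 6 of the 14. Both APAP pools lay under both control pools in 6 of the 14, beside 26.3% of all entries, and above them in 2, beside 24.8%.

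For uptake, Lrp1, a large receptor of remnant lipoproteins, gave 816 and 869.5 normalized reads in the 24 h and 48 h controls and 864 and 840.1 after APAP. Its folds were 1.06 (0.961 to 1.17) and 0.966 (0.878 to 1.06), and the 4 pools lay within a narrow band. Scarb1, the receptor of high-density lipoprotein, gave 445 and 596 normalized reads in the 24 h and 48 h controls and 635 and 569 after APAP. Its folds were 1.43 (1.26 to 1.62) and 0.955 (0.85 to 1.07), and the 24 h control stood apart from the other 3 pools at the low end. Against the control pool of the other time, the folds of Scarb1 were 1.07 and 1.28, so the difference at 24 h rests on that control. Mylip is the ubiquitin ligase, induced by liver X receptors, that removes lipoprotein receptors from the cell surface. It gave 14 and 23 reads in the 24 h and 48 h controls and 38 and 40 after APAP. Its folds were 2.03 (1.08 to 4.06) and 1.52 (0.889 to 2.66). Both APAP pools were above both controls, but with so few reads the intervals were wide, and against the other control pool the folds were 1.31 and 2.36. Summed, uptake genes were 1.20 and 0.971 times their control level at 24 h and 48 h.

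Stard4, Npc1 and Soat2 stand for transport and esterification. Stard4, a sterol carrier of the cytosol and a known SREBP2 target, gave 139.8 and 185 normalized reads in the 24 h and 48 h controls and 93.7 and 102 after APAP. It was 1.49 (1.14 to 1.95) times lower at 24 h and 1.81 (1.42 to 2.33) times lower at 48 h, below both controls at both times. The control pools of Stard4 differed by a ratio of 1.33 (1.05 to 1.69). Against the control pool of the other time, its folds were 0.505 at 24 h and 0.731 at 48 h, so the order of the times turned. Npc1, which exports cholesterol from the lysosome, gave 166 and 147 normalized reads in the 24 h and 48 h controls and 152 and 128 after APAP, with folds of 0.913 (0.73 to 1.14) and 0.868 (0.68 to 1.11). Its 3′ end overlaps that of Rmc1 on the other strand. Soat2, which esterifies cholesterol in hepatocytes, gave 79.6 and 60.0 normalized reads in the 24 h and 48 h controls and 94.5 and 75.0 after APAP, with folds of 1.19 (0.873 to 1.63) and 1.25 (0.877 to 1.79). Its 3′ end matched parts of Gm12976, Gm42503 and Slco2a1. For Npc1 and Soat2 no difference from the control pool of the same time was detectable at this depth. Against the control pool of the other time, the folds at 24 h and 48 h were 1.57 and 0.943 for Soat2 and 1.03 and 0.768 for Npc1. The direction thus turned for Soat2 at 48 h and for Npc1 at 24 h.

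Efflux showed no common direction. Abca1, which loads cholesterol onto apolipoprotein A-I, gave 175 and 154 normalized reads in the 24 h and 48 h controls and 142 and 151 after APAP, with folds of 0.812 (0.649 to 1.02) and 0.978 (0.776 to 1.23). Abcg5 and Abcg8 form the dimer that secretes sterols into bile, and their genes lie head to head. Abcg5 gave 70.5 and 145 normalized reads in the 24 h and 48 h controls and 86.9 and 121 after APAP, with folds of 1.23 (0.89 to 1.72) and 0.836 (0.651 to 1.07). The lowest and the highest of its pools were both controls, which differed by a ratio of 2.05 (1.51 to 2.82). Abcg8 gave 117 and 129 normalized reads in the 24 h and 48 h controls and 123 and 139.7 after APAP, with folds of 1.05 (0.808 to 1.36) and 1.09 (0.848 to 1.39), and its pools lay close together. Against the other control pool, the folds of Abcg5 were 0.60 and 1.72, so that its direction turned at both times.

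Abcg1 stood apart from the other efflux genes. It exports cholesterol to high-density lipoprotein, is a target of liver X receptors and is known for its high level in macrophages. It gave 26 and 20 reads in the 24 h and 48 h controls and 39 and 65 after APAP. Its 24 h fold was 1.12 (0.667 to 1.92) and its 48 h fold 2.84 (1.7 to 4.95), and the ratio of the folds was 2.53 (1.18 to 5.45). Only the APAP pool at 48 h was clearly above the others, and against the control pool of the other time the folds were 1.55 at 24 h and 2.06 at 48 h. Myeloid markers were also higher in that pool. Their sum over 10 genes was 413 to 464 normalized reads in the controls, 949 at 24 h and 1403 at 48 h after APAP, or 2.30-fold and 3.02-fold higher, with no marker at 0. Of the 9 that met the minimum, 5 were called higher at 24 h (5.85% of all entries) and 7 at 48 h (5.76%). Adgre1 and Csf1r were not among them, with folds of 0.793 (0.531 to 1.19) and 0.995 (0.791 to 1.25) at 24 h. At 48 h their folds were 1.14 (0.738 to 1.76) and 0.936 (0.762 to 1.15). The part of myeloid cells in the level of Abcg1 was not tested.

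Pericentral hepatocyte markers were lower in the same libraries as the synthesis enzymes. These markers, those of hepatocytes around the central vein where APAP is bioactivated, summed to 17902 to 20036 normalized reads in the controls, 6879 at 24 h and 5915 at 48 h after APAP. Their sum was 0.384 and 0.295 times control. Of the 7 that met the minimum, 6 were at least 2-fold lower at 24 h (5.68% of all entries) and all 7 at 48 h (5.61%). Axin2, in the sum but under the minimum, had folds of 1.28 (0.466 to 3.85) at 24 h and 0.583 (0.207 to 1.55) at 48 h. Named by a fold of at least 2 in the same direction at both times were Glul, Oat, Cyp1a2, Slc1a2, Rgn and Lgr5. Of all entries, 2.40% were at least 2-fold lower at both times. Among the 7 markers, the interval lay below 1 in all 7 at 24 h (18.3% of all entries) and in 6 at 48 h (18.9%). Lgr5 had only 18 and 15 reads in the 24 h and 48 h controls and 6 and 7 after APAP. Its interval held 1 at 48 h (0.141 to 1.06). Periportal markers summed to 31184 to 39016 in the controls, 21909 and 33166 after APAP, or 0.703 and 0.85 times control. Of 8, 3 were at least 2-fold lower (5.68% of all entries) and 1 higher (5.85%) at 24 h. At 48 h, 1 was lower (5.61%) and 1 higher (5.76%), with Cyp2f2 lower and Pck1 higher at both times. General hepatocyte markers summed to 439806 to 451471 in the controls and 428369 and 467581 after APAP, a fold of 0.974 and 1.04. Of the 7 found (Tf had no entry), 1 was at least 2-fold changed at 24 h, Fgb, higher (5.85% of all entries), and none at 48 h. Alb weighs most in this sum, with 208729 of its 386866 reads in the 24 h control. Single markers differed in direction. The interval lay above 1 in 4 and below 1 in 3 at 24 h, beside 15.4% and 18.3% of all entries. At 48 h it did so in 3 and 3, beside 13.9% and 18.9%. At 24 h the fold was 0.561 for Ttr, 0.661 for Serpinc1, 1.37 for Ahsg and 2.70 for Fgb.

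The sums of the other cells were 0.963 and 1.39 times control for Kupffer, 1.08 and 1.03 for endothelial and 0.943 and 2.12 for stellate markers at 24 h and 48 h. Of the 4 Kupffer markers 1, Marco, and of the 5 endothelial markers 1, Lyve1, were called higher at both times, beside 2.15% of all entries. At 24 h the interval lay above 1 in 1 Kupffer marker and below 1 in 1, Clec4f. Clec4f had a fold of 0.534 (0.441 to 0.645). At 48 h the interval lay above 1 in 2 Kupffer markers and below 1 in 0. For endothelial markers it lay above 1 in 2 at each time and below 1 in 1 at 48 h. That 1 was Stab2, with a fold of 0.780 (0.625 to 0.973). Over all entries the interval lay above 1 in 15.4% and 13.9% and below 1 in 18.3% and 18.9% at 24 h and 48 h. Of the 6 stellate markers 4 were called higher at 48 h (5.76% of all entries) and none at 24 h (5.85%). Lyz2, Cd14, Ccr2, S100a8 and S100a9 were the myeloid markers at least 2-fold higher at both times. No marker of these lists was at 0 in any library. The part of these cells in the levels of the cholesterol genes was not tested.

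**Figure D4:**
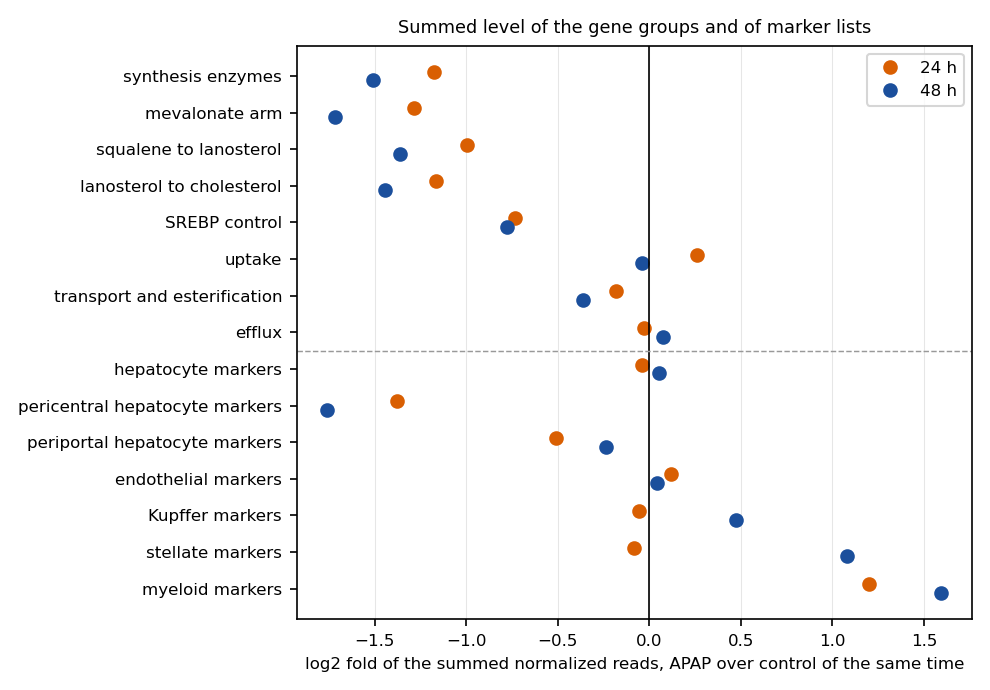
Log2 fold of the summed normalized reads of each group of cholesterol genes (above the dashed line) and of each marker list (below it), APAP over control of the same time. The 3 steps of sterol synthesis were 1.99 to 3.29 times lower and lie on the left with pericentral hepatocyte markers, while hepatocyte markers and efflux genes lie near 0 and myeloid markers on the right.

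Beyond these genes, 31 further genes of sterol handling were looked up by name, of which 29 met the minimum. At 24 h, 4 were at least 2-fold lower (5.68% of all entries) and 2 higher (5.85%), and at 48 h 4 were lower (5.61%) and 1 higher (5.76%). The interval lay below 1 in 11 and above 1 in 3 at 24 h, beside 18.3% and 15.4% of all entries, and below 1 in 7 and above 1 in 4 at 48 h, beside 18.9% and 13.9%. Their median log2 folds were -0.15 and -0.04, beside 0.01 and -0.02 over all entries. Changed at least 2-fold the same way at both times were Aacs, Cyb5r3 and Soat1. Aacs, which activates acetoacetate in the cytosol as a precursor of sterols, gave 337 and 342 reads in the 24 h and 48 h controls and 81 and 75 after APAP, with folds of 0.180 (0.140 to 0.230) and 0.192 (0.147 to 0.247). Cyb5r3, a reductase that passes electrons to enzymes including Sc5d, had folds of 0.462 (0.430 to 0.496) and 0.322 (0.302 to 0.342). Its control pools lay far apart, with 2014 reads at 24 h and 3723 at 48 h, beside 1242 and 1370 after APAP. Soat1, the acyltransferase of macrophages, had 7 and 15 reads in the controls and 20 and 37 after APAP, with folds of 2.14 (0.869 to 5.99) and 2.16 (1.16 to 4.23). Its interval held 1 at 24 h, and between the control pools Soat1 was itself at least 2-fold higher at 48 h. Folds of these further genes against the control pool of the other time were not calculated.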

How the data were processed

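The authors pooled DNase-treated liver RNA, prepared 3′ libraries with the MACE-kit v.2, removed duplicates by unique molecular identifiers, trimmed bases with cutadapt, clipped poly(A)-tails and mapped reads on mm10. Their deposited table holds the raw count of reads per gene from HTSeq, which was the unit used. Aligner, versions, strand setting and annotation are not given in the sources used here. Its columns of RPM, log2 ratios, p-values and FDR were not used. Libraries were grouped by their labels.

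Size factors came from DESeq2 1.42.0 (median of ratios), with edgeR 4.0.16 TMM factors as an alternative, in R 4.3.3. With 1 library per group neither tool's test was run. Folds, exact (Clopper-Pearson) 95% intervals and ratios of folds (exact conditional intervals, or over all entries a normal interval on the log scale where all 4 counts reached 30) came from scripts in Python 3.11.15 (scipy 1.17.1, numpy 2.4.6, pandas 2.3.3, with plots by matplotlib 3.10.9). Intervals cover counting error only. For calls, a lower count under 3 reads was raised to 3, which is 0.526 to 0.617 RPM. The code was also run on simulated counts with known folds, drawn with Poisson error at the same size factors. Those counts held no differences between mice or pools, so the run checks the calculation only.

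Positions came from GENCODE vM21 (GRCm38). Last 300 bases were compared by blastn 2.17.0, at 95% identity or more over 100 bases or more. Every cholesterol gene is described, and of further and marker genes those changed at least 2-fold the same way at both times are named. Members and lists were chosen with earlier results of these data known. Alternatives were library totals, TMM factors, other control pools, a pseudocount, floors, minimum levels and thresholds.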

Additional observations from a re-analysis of the deposited data

Results flagged for a closer look

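For 3 genes the fold against control differed between 24 h and 48 h by more than 2-fold, with a counting interval that left out 1. The ratio of the fold at 48 h to that at 24 h was 0.438 (0.356 to 0.539) for Tm7sf2, whose control pools differed by a ratio of 1.86 (1.67 to 2.07). It was 0.478 (0.326 to 0.698) for Hsd17b7, whose control pools differed by a ratio of 1.25 (1.0 to 1.57). It was 2.53 (1.18 to 5.45) for Abcg1, which had 20 to 65 reads per library. Against the control pool of the other time, the folds at 24 h and 48 h were 0.238 and 0.358 for Tm7sf2, 0.548 and 0.409 for Hsd17b7 and 1.55 and 2.06 for Abcg1, so that none of the 3 then differed 2-fold between the times. Each ratio compares 4 pooled libraries, and whether other pools would differ likewise was not tested.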

How the results depend on the processing

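No summary changed direction under the alternatives run. Scaled by library totals, 8 genes were at least 2-fold lower at 24 h (13 by size factors), and the median log2 folds were -0.51 over the 32 genes and -0.83 over the enzymes at 24 h and -0.71 over the 32 genes at 48 h. No longer 2-fold lower were then Idi1, Sqle, Tm7sf2, Ebp and Scap at 24 h and Fdft1 and Insig2 at 48 h. Folds near 1 then turned above 1 for Insig2 and Npc1 at 24 h and for Ggps1, Lrp1, Scarb1, Npc1, Abca1 and Abcg5 at 48 h. The single gene called higher at 24 h, Mylip, was not called (0 genes) with a pseudocount of 1, against the sum of both controls, against the other control pool or with a minimum mean of 50 normalized reads. At 48 h, 2 genes were called higher against the other control pool, 2 at a threshold of 1.5-fold and 0 with the minimum of 50. With that minimum the median over the genes left was -0.97 at 24 h. Against the other control pool, Sqle, Ebp and Insig1 at 24 h and Insig2 at 48 h were no longer 2-fold lower. Of the 64 folds, 22 moved beyond their counting interval against the other control pool, 26 with library totals, 7 against the sum of both controls and 0 with TMM factors. Calls near the threshold were still lost, leaving 10 genes lower at 24 h with TMM factors (without Idi1, Ebp and Scap) and 11 against the sum of both controls (without Sqle and Ebp), where 15 were left at 48 h (without Insig2). The causes were not tested. No replicate could be left out, because each group has 1 library. Depth limited Mylip, Abcg1 and Ggps1 most, with 14 to 65 reads per library.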
